A study of Brassica napus with 15 samples.

Results

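The 3 genes described here are Brassica napus matches of Arabidopsis abscisic acid (ABA) receptors: BnaA10g06520D and BnaCnng37890D match PYL8, and BnaC08g33170D matches PYL2. They were taken by gene name from the 101040 coding genes of the expression tables, and were chosen with earlier results of these data known. RNA was sequenced from seeds of 3 winter oilseed rape accessions that differ in germination speed, fast C129, intermediate C033 and slow C032, as dry seeds (0 hours after imbibition, hai) and at 2, 12, 36 and 72 hai. A single library stood for each of the 15 combinations of accession and time, made from pooled RNA of 3 biological replicates of 30 seeds. Seeds sampled after 0 hai had been imbibed with distilled water in the dark. No combination was sequenced again, so the 3 accessions stood in for replicates of each time, and the 5 times for replicates of each accession, and p-values measure the spread among these pooled libraries. A change specific to 1 accession at 1 time could therefore not be tested.

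PYR/PYL/RCAR proteins are soluble receptors. With ABA bound they block clade A type 2C protein phosphatases, which otherwise hold SnRK2 kinases inactive, and the freed kinases phosphorylate transcription factors and other targets of the hormone. ABA keeps seeds dormant and arrests germination, and in the growing plant it also tunes root growth and water loss. In Arabidopsis, PYL8 is a monomeric receptor known for its part in the ABA response of roots and in lateral root growth, whereas PYL2 belongs to the receptors that form dimers in the absence of hormone.

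The PYL8 match BnaA10g06520D, called the A10 copy below, lies on the plus strand of scaffold LK032834 of the assembly AST_PRJEB5043_v1, at bases 109992 to 111384, in a model of 3 exons with 984 transcribed bases. The second match, BnaCnng37890D or the C copy, lies on the plus strand of the unplaced C-subgenome scaffold LK034002, at bases 1608 to 3135, also in 3 exons, with 1178 transcribed bases. BnaC08g33170D, the PYL2 match, is a gene of 1 exon and 692 bases on the plus strand of LK031808, at bases 741662 to 742353. No annotated row overlapped any of the 3 genes. The nearest was BnaA10g06530D, 509 bases from the A10 copy on the other strand. The PYL8 copies may share reads. In 7 of the 14 libraries where the A10 copy was above 0, the aligned bases were not a whole number within 0.02 bases. For the C copy it was 3 of 8. Reads divided between places in the genome would give such values. The settings for such reads are not given in the sources used here, so this division is inferred only. In 4 of the 7 libraries of the A10 copy the C copy was at 0 or whole, so other places may have taken part. Both the levels of single copies and their sum carry that uncertainty.

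The libraries held between 19.4 and 41.7 M read equivalents on coding genes (median 27.5 M). Levels are given in TPM, a measure corrected for transcript length and library size, and the TPM of coding genes summed to between 608866 and 904932. Marker genes followed the labels. The summed level of 4 seed genes, an oleosin and 3 small heat shock proteins, was 829 to 1392 TPM at 0 hai and 2.01 to 4.38 TPM at 72 hai. The summed level of 3 photosynthesis genes reached 27.7 to 47.7 TPM at 72 hai and at most 2.81 TPM earlier. Both lists moved with time, as did the receptor genes, and their part in the results was not tested. In such bulk samples, a change in the share of cells of a type and a change in RNA per cell cannot be told apart.

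Both PYL8 copies were near the limit of detection at 0 and 2 hai and still low at 12 hai. They rose between 12 and 36 hai in all 3 accessions. PYL2 rose at the same step to a lower level and fell again by 72 hai. At 36 hai, mean levels were 7.61 ± 2.23 TPM for the A10 copy, 4.26 ± 2.02 TPM for the C copy and 1.82 ± 0.715 TPM for PYL2 (SD, n = 3 accessions). At 72 hai they were 9.27 ± 0.438, 8.05 ± 6.29 and 0.281 ± 0.316 TPM (SD, n = 3).

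**Figure D1:**
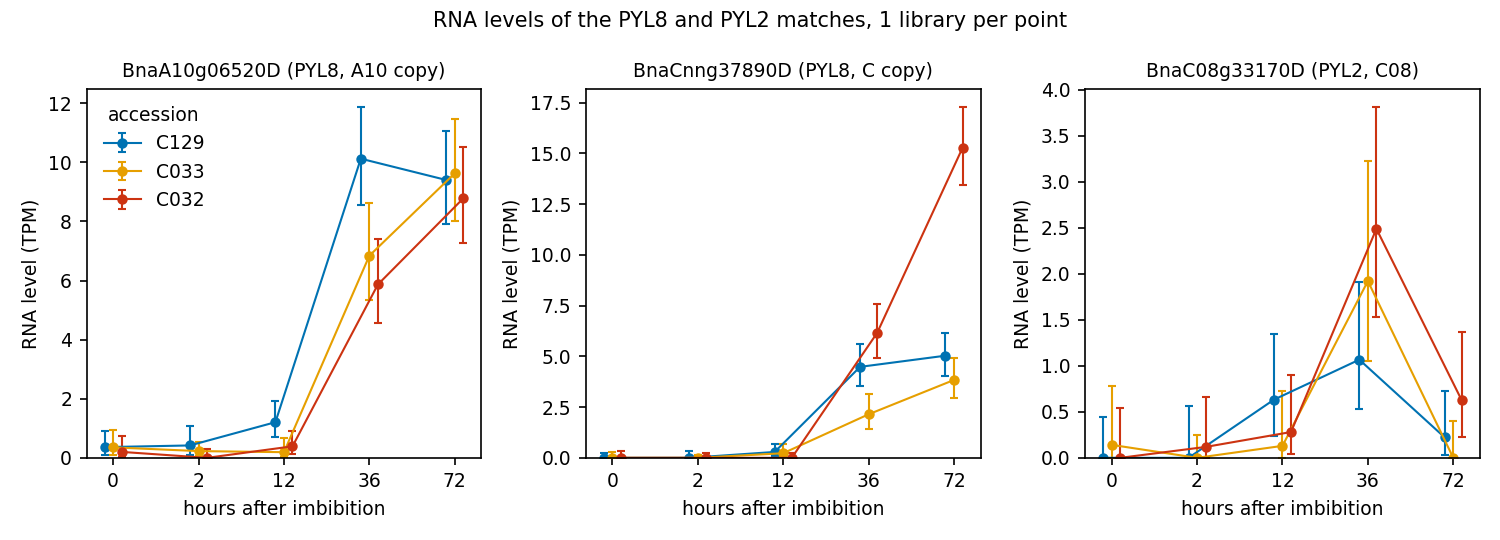
RNA level in TPM (vertical axis, a separate scale in each panel) of the 3 receptor genes against hours after imbibition (horizontal axis, times evenly spaced), with 1 line per accession, 1 library per point and bars for the 95% Poisson interval of the read pairs. The PYL8 copies stood at or below 1.21 TPM up to 12 hai and between 2.15 and 15.3 TPM later, and PYL2 had its highest level at 36 hai in each accession.

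Of the PYL8 copies only A10 had reads at 0 hai, above the level of 3 read pairs in C129 and C033 and below it in C032. In C129 its levels at 0, 2, 12, 36 and 72 hai were 0.362, 0.419, 1.21, 10.1 and 9.40 TPM. In C033 they were 0.354, 0.229, 0.191, 6.84 and 9.63 TPM, and in C032 they were 0.201, 0, 0.390, 5.87 and 8.78 TPM. The libraries thus fell into a low set up to 12 hai and a high set from 36 hai, with no overlap. Within the low set the times overlapped, and so did 36 and 72 hai within the high set. At 0 hai the level rested on 1.96 to 4.29 read pairs per library, and at 72 hai on 118 to 143, so the low set gives the order of magnitude of the level and little more.

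From 12 to 36 hai the A10 copy rose by 2.45 on the log2(TPM + 1) scale (SE 0.19, limma, Benjamini-Hochberg adjusted p = 9.94e-08). This scale understates changes of low genes. On the TPM scale the increase was 8.39-fold in C129 (95% counting interval 5.09 to 14.7) and 15.05-fold in C032 (6.12 to 48.2). In C033, where 2.09 read pairs made the base, the ratio was 35.8 (9.79 to 283). These intervals, like all others here, cover counting error only. From 36 to 72 hai no change was called. The fitted change was 0.28 (interval -0.12 to 0.69, limma adjusted p = 0.246), with a ratio of 0.929 in C129 (0.733 to 1.18), 1.41 in C033 (1.04 to 1.91) and 1.497 in C032 (1.10 to 2.04). With size factors the ratios in C033 and C032 were 1.18 (0.876 to 1.61) and 1.13 (0.830 to 1.54).

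Between accessions no difference of the A10 copy was called, and its size depended on scaling. In TPM, its level in the fast accession C129 at 12 hai was 6.32 times that of C033 (1.54 to 52.8) and 3.09 times that of C032 (1.10 to 10.8), and at 36 hai 1.48 times (1.11 to 1.99) and 1.73 times (1.29 to 2.33). Median-of-ratios size factors, which set the typical gene equal between libraries, were high in C129, and after dividing by them these ratios were 3.90 (0.949 to 32.6) and 2.30 (0.814 to 8.02) at 12 hai and 0.913 (0.684 to 1.23) and 1.21 (0.906 to 1.64) at 36 hai. Every one of these scaled intervals includes equal levels. At 72 hai the ratio to C033 was 0.977 (0.763 to 1.25) in TPM and 0.753 (0.588 to 0.964) after scaling, and the ratio to C032 was 1.07 (0.833 to 1.38) in TPM. These are comparisons of single libraries.

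Over all 5 times the A10 copy was 0.43 higher in C129 than in C032 on the log2 scale (SE 0.15, limma adjusted p = 0.0395), under the minimum change of 1, and 0.32 higher than in C033 (SE 0.15, limma adjusted p = 0.0891). The median of all genes was itself 0.26 and 0.36 higher in C129 in the same comparisons. With median-of-ratios scaling the differences of the A10 copy were 0.26 (limma adjusted p = 0.205) and 0.019 (limma adjusted p = 0.953), and with an equal coding total in each library 0.35 (limma adjusted p = 0.073) and 0.18 (limma adjusted p = 0.361).

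The C copy was listed at 0 in 7 of 15 libraries, among them all 6 from 0 and 2 hai. In C129 it read 0.290, 4.48 and 5.03 TPM at 12, 36 and 72 hai, and in C033 it read 0.227, 2.15 and 3.84 TPM. C032 had 0 at 12 hai, then 6.16 and 15.3 TPM. The late libraries all exceeded the early ones, and the C032 library of 72 hai stood above every other. For a count of 0, 3 read pairs per library were taken as the limit that it allows. Against that limit at 0 hai, the 72 hai level was 23.8-fold higher in C129, 15.5-fold in C033 and 59.3-fold in C032. The 72 hai levels entered as measured, so these ratios leave out their counting error and are not lower bounds. From 12 to 36 hai the fitted rise was 2.10 on the log2 scale (SE 0.33, limma adjusted p = 9.86e-05). From 36 to 72 hai it was 0.65 (interval -0.06 to 1.36, limma adjusted p = 0.129). The ratio at that step was 1.12 in C129 (0.822 to 1.54), 1.79 in C033 (1.11 to 2.94) and 2.48 in C032 (1.94 to 3.21). With size factors they were 1.18 (0.861 to 1.61), 1.502 (0.936 to 2.47) and 1.87 (1.46 to 2.41). Whether these ratios differ was not tested across replicates.

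**Figure D2:**
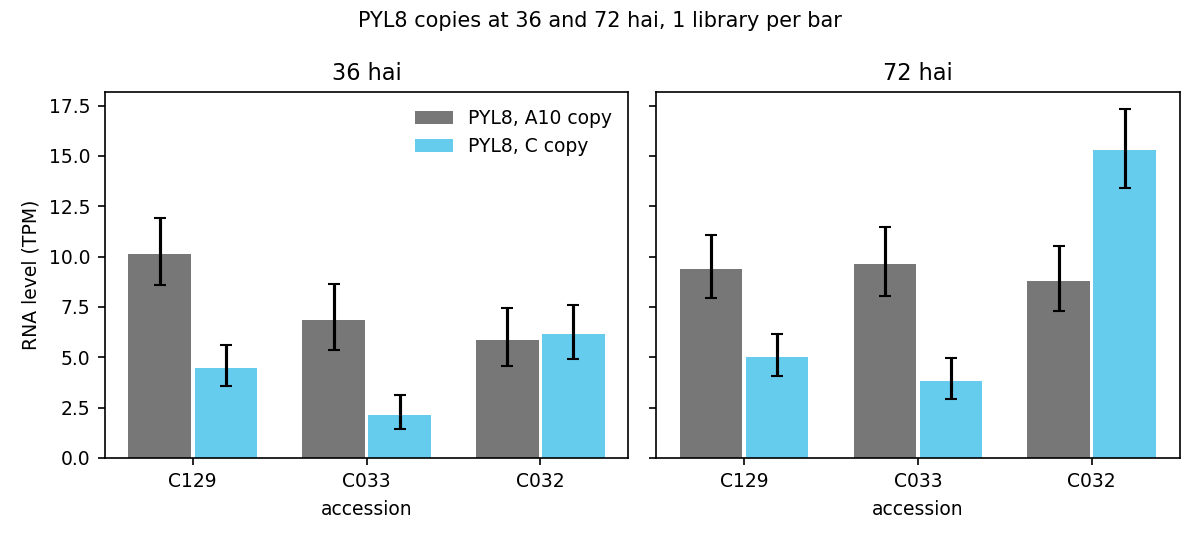
RNA level in TPM (vertical axis, from 0) of the PYL8 copies in each accession at 36 hai (left) and 72 hai (right), with 1 library per bar and 95% Poisson intervals of the read pairs. The A10 copy was the higher one in C129 and C033, the copies had 5.87 and 6.16 TPM with overlapping intervals in C032 at 36 hai, and the C copy reached 15.3 TPM against 8.78 TPM for the A10 copy in C032 at 72 hai.

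In the late libraries the balance of the copies was different in the slow accession. Of the summed level of both copies, the A10 copy made 69.3% in C129 at 36 hai and 65.1% at 72 hai. In C033 it made 76.1% and 71.5%. In C032 it made 48.8% and 36.5%. The A10 copy was thus the larger part in both late libraries of C129 and C033. In C032 it was the smaller part at 72 hai. At 36 hai the copies of C032 had 5.87 (4.57 to 7.42) and 6.16 (4.93 to 7.59) TPM, which their counts do not separate. The aligned bases of both copies were not whole numbers in C032 at 36 and 72 hai and in C033 at 72 hai. In C129 at 36 and 72 hai and in C033 at 36 hai they were whole. Whether divided reads shaped the balance of the copies was not tested. At 72 hai the C copy of C032 was 3.98 times that of C033 (2.99 to 5.37), whereas the level of C129 was 0.329 times that of C032 (0.256 to 0.420). At 36 hai C032 stood 2.87 times above C033 (1.84 to 4.62), and the ratio of C129 to C032 was 0.728 (0.530 to 0.999). Size factors left C032 above both: its ratio to C033 was then 3.13 (2.35 to 4.23) at 72 hai and 2.52 (1.62 to 4.05) at 36 hai, and the ratio of C129 to it was 0.323 (0.251 to 0.412) and 0.512 (0.372 to 0.702).

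Over all 15 libraries these differences of the C copy were not past the threshold, in a fit that includes the 7 libraries at 0: C033 minus C032 was -0.53 (SE 0.26, limma adjusted p = 0.205) and C129 minus C032 was -0.29 (SE 0.26, limma adjusted p = 0.383). A fit to the 6 libraries of 36 and 72 hai alone, chosen after seeing the data and with 2 residual degrees of freedom, gave -1.47 for C033 minus C032 (SE 0.26, limma adjusted p = 0.000487) and -0.91 for C129 minus C032 (SE 0.26, limma adjusted p = 0.0271). The first passed the rule for a call, the second stayed under the minimum change of 1. As the libraries were picked from these same values, these p-values describe them and are no independent test. In that fit 6.17% of all genes were called between C033 and C032, 7.36% between C129 and C032 and 7.43% between C129 and C033.

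Other loci of the receptor family could not be listed here, so a sum of these copies may not cover all PYL8 RNA. With both copies summed, the level reached 14.6 TPM (C129), 8.99 TPM (C033) and 12.0 TPM (C032) at 36 hai. At 72 hai it was 14.4, 13.5 and 24.1 TPM. The test of whether the copies changed by different amounts compared the difference of their log2 levels (A10 minus C) before and after the rise. It was 0.35 in the libraries up to 12 hai and 0.58 in those from 36 hai, a difference of 0.23 (exact permutation of times within accessions, two-sided p = 0.347, smallest possible 0.001). This value depended on C032. Without that accession it was 0.66 (exact permutation p = 0.01, the smallest possible), and without C033 it was -0.16 (exact permutation p = 0.53). It also turned negative at smaller pseudocounts, to -0.86 at 0.1 TPM (exact permutation p = 0.096).

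PYL2 was the lowest of the 3 genes from 36 hai on, and its values rest on few reads. In C129 its levels at 0, 2, 12, 36 and 72 hai were 0, 0, 0.632, 1.07 and 0.221 TPM. In C033 they were 0.141, 0, 0.130, 1.92 and 0 TPM, and in C032 they were 0, 0.118, 0.280, 2.49 and 0.623 TPM. Each accession had its highest level at 36 hai, and no library of another time reached the lowest level of 36 hai. The 36 hai levels rested on 11.0 read pairs in C129, 13.9 in C033 and 20.7 in C032. All libraries of other times held at most 6.37.

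The rise of PYL2 from 12 to 36 hai was 1.05 on the log2 scale (SE 0.21, limma adjusted p = 0.000485) and the following fall -1.14 (SE 0.21, limma adjusted p = 0.000409). From 0 to 72 hai the change was 0.27 (SE 0.21, limma adjusted p = 0.254). On the TPM scale the rise was 8.88-fold in C032 (2.43 to 57.3, from 2.5 read pairs), while C129 had a ratio of 1.69 (0.582 to 5.38), which its counts do not separate from no change. In C033 the ratio was 14.8 (2.24 to 625) over a base of 1 read pair. By 72 hai PYL2 stood at 0.207 times its 36 hai level in C129 (0.0283 to 0.874) and at 0.250 times in C032 (0.0818 to 0.647). In C033 the level of 3 read pairs, set in place of 0, was 5.86-fold lower. That ratio leaves out the counting error of the 36 hai level and is not a lower bound. The rise lay close to the minimum change of 1 and was below it without C033 (0.89) or without C032 (0.86), and the fall was below it without C033 (-0.93). At 36 hai PYL2 was 0.429 times as high in C129 as in C032 (0.186 to 0.932), and 0.301 times (0.131 to 0.655) with size factors. The ratio of C129 to C033 was 0.555 (0.228 to 1.32) in TPM and 0.343 (0.141 to 0.814) with size factors. Over all times the differences between accessions ranged from -0.22 to 0.03 on the log2 scale, with limma adjusted p of 0.343 or more.

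**Figure D3:**
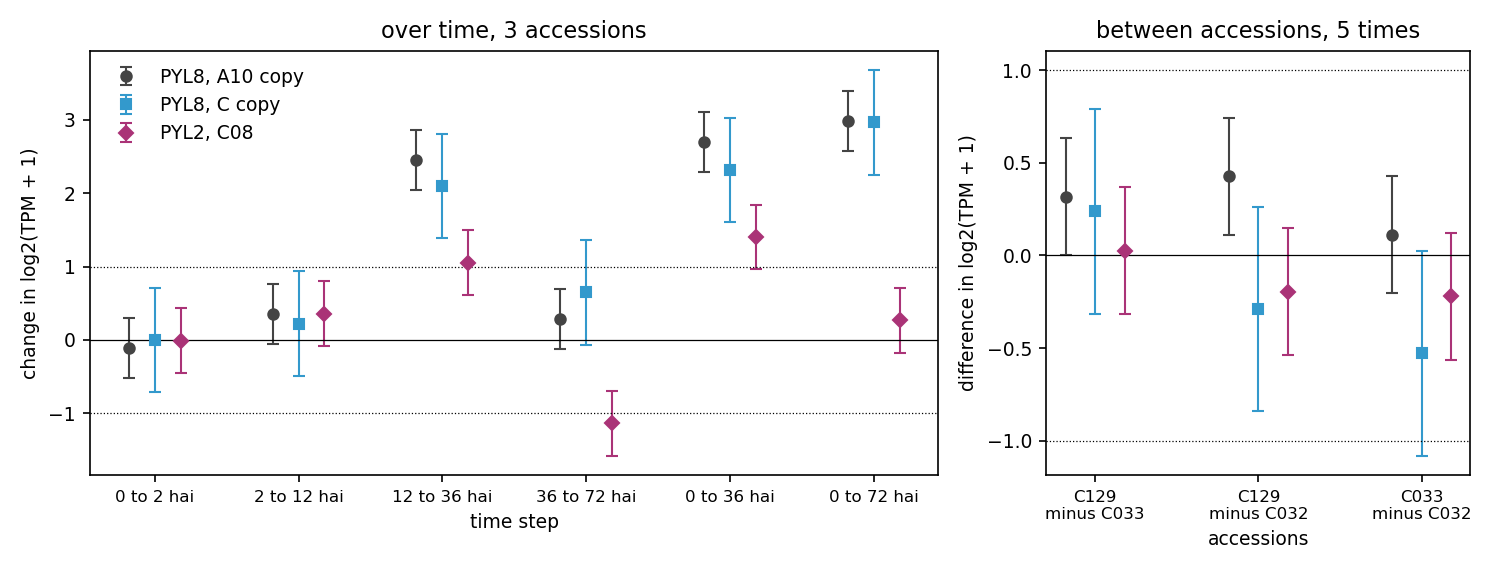
Fitted changes of the 3 genes on the log2(TPM + 1) scale (vertical axes) over time steps in all 3 accessions (left) and between accessions over all 5 times (right), with limma 95% confidence intervals and dotted lines at the minimum change of 1. The 3 genes rose from 12 to 36 hai, PYL2 alone was called from 36 to 72 hai, with a change of -1.14, and no difference between accessions reached 1.

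Read against all genes, the step from 12 to 36 hai was one at which much of the transcriptome moved. All 3 receptor genes were called higher there, and 18.8% of the 53233 genes tested were called higher at that step (32.8% in either direction). From 36 to 72 hai, 1 of the 3 was called, lower, as were 4.82% of all genes (21.9% in either direction). From 0 to 36 hai all 3 were called higher (31.4% of all genes higher, 43.2% in either direction), and from 0 to 72 hai both PYL8 copies were (41.9% higher, 52.3% in either direction). The genes passed the minimum of 1 TPM in 3 libraries only through libraries where they were high: PYL2 through the 3 of 36 hai, the C copy through the 6 of 36 and 72 hai, and the A10 copy through those 6 and C129 at 12 hai. These counts therefore describe the genes and are no evidence about a group. With median-of-ratios scaling the same genes were called, while the share of all genes called higher was 25.8% from 0 to 36 hai and 32.7% from 0 to 72 hai.

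Earlier in germination none of the 3 was called. From 0 to 2 hai the limma changes were -0.11 for the A10 copy, 0.00 for the C copy and -0.01 for PYL2, with adjusted p of 1 for each and 0 of 3 at an unadjusted p under 0.05, and 0.00188% of all genes were called. The C copy was at 0 in every library of these times, and PYL2 held at most 1 read pair. Both results only place these genes near the limit of detection. From 2 to 12 hai they were 0.36, 0.22 and 0.36 (limma adjusted p = 0.170, 0.680 and 0.200), again with 0 of 3 at an unadjusted p under 0.05, beside 13.1% of all genes called. Between accessions 0 of 3 were called in any of 3 comparisons, while limma called 5.95% of genes between C129 and C033, 6.99% between C129 and C032 and 5.43% between C033 and C032. At an unadjusted p under 0.05 it was 1, 1 and 0 of the 3 genes, the A10 copy both times. The share of all genes at that p is not given here, so these counts are no result about the receptors.

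In rank among all coding genes the receptors reached the middle to upper range. At 36 and 72 hai between 14.6% and 19.7% of coding genes lay above the A10 copy. For the C copy it was between 11.6% (C032 at 72 hai) and 32.1% (C033 at 36 hai). For PYL2 it was between 31.8% and 45.3% at 36 hai and between 52.7% and 63.9% at 72 hai.

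The other genes of ABA and gibberellin signalling examined were 15 loci, most of which the study itself discusses from these samples, so their direction is not independent evidence. The SnRK2.5 matches, kinases of the SnRK2 family that in Arabidopsis respond to osmotic stress, were likewise low up to 12 hai and higher from 36 hai. BnaA06g22800D rose by 3.31 from 12 to 36 hai (SE 0.24, limma adjusted p = 5.33e-08) and BnaC03g50700D by 3.06 (SE 0.24, limma adjusted p = 1.15e-07). Their mean levels were 0.158 and 0.530 TPM at 12 hai, 11.0 and 12.2 TPM at 36 hai, and 23.1 and 29.0 TPM at 72 hai. From 36 to 72 hai BnaC03g50700D was called again, with 1.22 (limma adjusted p = 0.000821). BnaA06g22800D had 1.01 (limma adjusted p = 0.00327), at the minimum change, and was under it with median-of-ratios scaling (0.82), with an equal coding total (0.80) and without C032 (0.82). Whether these changes differ from those of PYL8 was not tested.

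The matches of ABI3, a transcription factor of seed maturation that carries ABA signals, went the opposite way. They had their highest level at 12 hai in every accession. BnaA03g37510D had a mean of 125 TPM at 12 hai, 15.2 TPM at 36 hai and 2.76 TPM at 72 hai, and BnaC03g44820D had 83.8, 11.5 and 1.64 TPM. Of the 14 loci tested, limma called 6 higher and 0 lower from 2 to 12 hai, 3 higher and 7 lower from 12 to 36 hai, and 3 higher and 4 lower from 36 to 72 hai. With median-of-ratios scaling the first of these counts was 1 higher and 0 lower. Over all genes 11.0% were called higher and 2.08% lower at the first step, 18.8% and 14.0% at the second, and 17.1% and 4.82% at the third. With that scaling it was 5.11% and 4.83%, 20.1% and 11.4%, and 13.3% and 6.63%. The median change of these loci was -1.12 from 12 to 36 hai, against 0.04 over all genes. The 3 that rose there were both SnRK2.5 matches and SPT, a bHLH factor that in Arabidopsis acts in germination. The 7 that fell included both ABI3 matches, the gibberellin receptor GID1a and GA1, the enzyme of the first committed step of gibberellin synthesis. As for the receptors, 0 of 14 were called between accessions. At an unadjusted p under 0.05 in limma there were 8 between C129 and C033, 5 between C129 and C032 and 3 between C033 and C032. The share of all genes at that p is not given here, and the median gene itself differed by 0.36, 0.26 and -0.10. These counts are therefore no result about the loci.

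**Figure D4:**
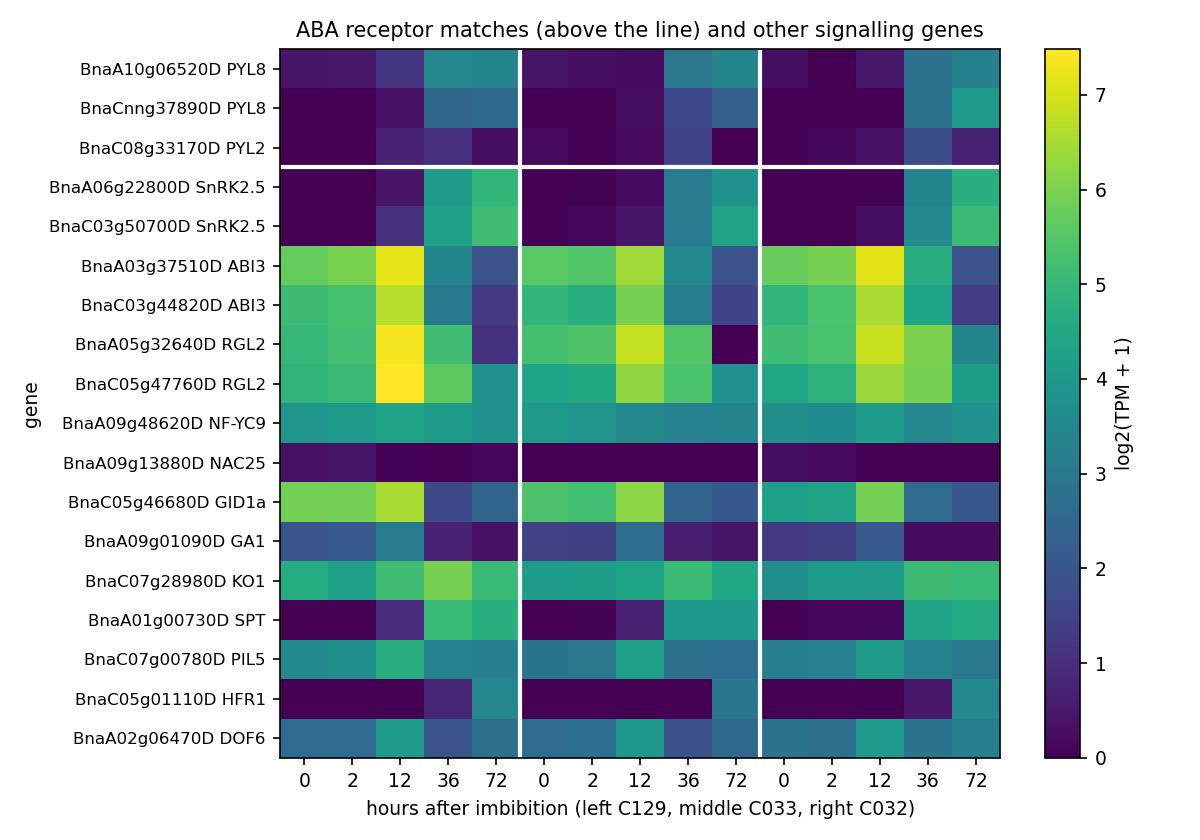
Levels as log2(TPM + 1) (colour scale) of the 3 receptor genes (above the horizontal line) and 15 other signalling loci (below), in rows, over the 15 libraries in columns, ordered by hours after imbibition within C129 (left), C033 (middle) and C032 (right). PYL8 and SnRK2.5 were low up to 12 hai and high from 36 hai, ABI3 and RGL2 peaked at 12 hai, and PYL2 was highest at 36 hai.

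Among themselves the PYL8 copies had similar courses over the 15 libraries, with a Pearson correlation of log2(TPM + 1) of 0.931. PYL2 correlated with them at 0.581 (A10 copy) and 0.567 (C copy). These values are descriptions, since all libraries share the time course. The genes whose course was most like that of the A10 copy were BnaA09g45060D, BnaC07g11880D and BnaA06g40660D, each at 0.994, and 8458 of the 53233 genes reached 0.9 or more. For the C copy they were BnaA06g00440D (0.991), BnaC06g26450D (0.990) and BnaA03g03770D (0.989), with 5787 genes at 0.9 or more. For PYL2, whose levels rest on few reads, 45 genes reached 0.9, led by BnaA09g30100D (0.952), BnaA02g32120D (0.948) and BnaC02g40810D (0.947).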

How the data were processed

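Expression tables of 15 libraries were used, sequenced as read pairs of 100 bases on an Illumina platform and processed with HISAT and StringTie, per the submitters' processing notes (versions not given in the sources used here), on AST_PRJEB5043_v1. The authors deposited TPM, which sum to the same total in every library, and coverage per gene. Read equivalents were computed as coverage times length over 100, read pairs as bases over 200, with 95% Poisson intervals. Depth is given in the report.

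Levels were tested as log2(TPM + 1) with limma 3.58.1 in R 4.3.3 (trend and robust variance, time and accession as terms, 8 residual degrees of freedom), over the 53233 coding genes that reached 1 TPM in 3 or more libraries. Genes were called where the log2 change was beyond 1 and the p adjusted after Benjamini and Hochberg was under 0.05. The difference of the PYL8 copies was tested by 1000 exact permutations. Scripts were checked on simulated data. Alternatives were pseudocounts of 0.1 and 0.01, other minimums, 2 other scalings, 1 model term, and leaving out each accession or time. Python 3.11.15 was used for the rest.

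The members and gene lists were chosen with earlier results of these data known. Named genes were the 3 receptors, the 15 loci of the list and, for likeness, the 3 genes with the highest correlation. The rule also asked for those with an Arabidopsis match at hand, of which 3060 were held, a table held only in part. Arabidopsis symbols of the receptor, SnRK2.5, oleosin and photosynthesis loci were assigned from their locus numbers by general knowledge. Columns of the authors' own comparisons were not used.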

Additional observations from a re-analysis of the deposited data

Results flagged for a closer look

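Changes between consecutive times ran in opposite directions in different accessions for the A10 copy of PYL8 and for PYL2, on the log2(TPM + 1) scale, and with 1 library per accession and time the difference between accessions was not tested. From 0 to 2 hai the A10 copy changed by 0.059 in C129, by -0.14 in C033 and by -0.26 in C032. From 2 to 12 hai the changes were 0.64, -0.045 and 0.47, at levels of few read pairs. From 36 to 72 hai, where 69.3 or more read pairs stood behind each level, it changed by -0.10 in C129, 0.44 in C033 and 0.51 in C032. PYL2 changed from 0 to 2 hai by 0 in C129, -0.19 in C033 and 0.16 in C032, where no library held more than 1 read pair.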

How the results depend on the processing

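Of 395 alternative values, 369 kept their direction and their side of the threshold or stayed near the main value. A count of genes called that went from 3 to 2 was taken as near. Some values could not move. Without a minimum or with 1 model term the fitted changes stay the same and only p-values move. The C copy had no reads at 0 and 2 hai. The rise of both PYL8 copies from 12 to 36 hai was called in every alternative run. Results on PYL2 and between accessions were less stable, and the causes were not tested. The minimum of 5 TPM left PYL2 untested, which took the count of genes called from 36 to 72 hai from 1 to 0.

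With a pseudocount of 0.01 TPM the change of PYL2 was 2.55 from 12 to 36 hai (limma adjusted p = 0.177) and -3.93 from 36 to 72 hai (adjusted p = 0.0664), neither past the threshold, so that 0 genes were called at the later step. The C copy then rose by 3.16 from 2 to 12 hai (limma adjusted p = 0.0487), as the 1 gene called, and its accession differences turned to 0.21 for C033 minus C032 and 0.57 for C129 minus C032. The copy difference turned to -2.84 (exact permutation p = 0.034). With 0.1 TPM the copy difference was -0.86, and the A10 copy was called between C129 and C032 (1.06, limma adjusted p = 0.041), which was 1 gene in place of 0.

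The difference of PYL2 between C129 and C033 of 0.03 turned to -0.12 with median-of-ratios scaling, to -0.055 with an equal TPM sum of coding genes in each library and to -0.11 in the libraries of 36 and 72 hai alone. Those libraries, an alternative added after seeing the data, gave -1.47 for the C copy between C033 and C032, with 1 gene called.

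Leaving out 1 accession in turn gave values for PYL2 of -0.095 to 0.081 from 0 to 2 hai, 0.86 to 1.41 from 12 to 36 hai and -1.32 to -0.93 from 36 to 72 hai. Counts of genes called ranged from 2 to 3 from 12 to 36 hai and from 0 to 1 from 36 to 72 hai, and the copy difference from -0.16 to 0.66. Leaving out 1 time in turn gave PYL2 between C129 and C033 values of -0.10 to 0.16, negative without 12 hai (-0.10) and without 72 hai (-0.04). Accession was a block in the time fits, and with time as the only term the receptors called in each step stayed the same in number. The labels number no replicates, so no other pairing was tried. Over all genes, calls higher made 71.8% of those between C129 and C033 and 63.9% between C129 and C032, and 41.3% and 43.9% with median-of-ratios scaling, which moved the median gene in these comparisons from 0.36 to 0.014 and from 0.26 to 0.024 and, from 2 to 12 hai, from 0.25 to 0. A pseudocount of 0.1 TPM raised all calls from 2 to 12 hai from 6984 to 12470 and between C129 and C033 from 3166 to 6316, and without time as a term the latter was 1539. Depth limits the levels up to 12 hai and all of PYL2, which rest on few read pairs.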

Other observations

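Of the genes paired with an Arabidopsis locus, those most like the A10 copy in their course over the 15 libraries were BnaC03g49920D (Pearson correlation 0.992), BnaA02g25720D (0.992) and BnaA10g07760D (0.991). For the C copy they were BnaC03g71620D (0.983), BnaC09g02650D (0.980) and BnaC03g14350D (0.9751). For PYL2 they were BnaA09g30100D (0.952), BnaA02g32120D (0.948) and BnaC01g22560D (0.931). NAC25, the 1 locus of the signalling list below the minimum for testing, reached at most 0.356 TPM.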
